A study of Mus musculus with 12 samples.

Results

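The genes described here are 10 genes of the disease-associated microglia programme around the receptor Trem2: Trem2, Tyrobp, Clec7a, Itgax, Axl, Spp1, Gpnmb, Cst7, Cd68 and Cd52. They were chosen by their symbols, with earlier results of these data known, and each was found as 1 of the 45906 genes in the table of counts. Polyadenylated RNA from total spinal cord of 12 mice, aged 7 months, was sequenced, with 3 mice in each of 4 genotypes. Plekhg5+/+ mice carried neither change. Plekhg5-/- mice lacked Plekhg5, an exchange factor that activates the small GTPase Rab26 in autophagy. Plekhg5+/+ SOD1G93A mice carried a low copy transgene for human SOD1 bearing an ALS mutation and with a slow course of disease, and Plekhg5-/- SOD1G93A mice carried both changes. The strains were C57BL/6. The study had asked if impaired secretion of mutant SOD1 alters the microglial response of these mice.

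Microglia are the resident macrophages of the central nervous system. Near damaged cells they can leave their homeostatic state and take up a state in which genes for lipid sensing, phagocytosis and lysosomal breakdown are switched on, known as disease-associated microglia. Trem2 on the cell surface binds lipids and lipoproteins and signals through the adaptor encoded by Tyrobp and the kinase Syk, and in mouse models the full programme needs Trem2. Mutations in human TREM2 or TYROBP cause Nasu-Hakola disease. Several of the 10 genes are not restricted to microglia. Spp1 is also made by motoneurons, Axl by astrocytes, Itgax by dendritic cells, Cst7 by NK and T cells, and Cd52 by lymphocytes.

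The genotypes matched the labels. Plekhg5 had 19.4 to 24.96 CPM in the 6 Plekhg5+/+ libraries of both kinds and 3.28 to 4.72 CPM in the 6 Plekhg5-/- libraries, and human SOD1 had 4421 to 5638 CPM in the 6 transgenic and at most 5.47 CPM in the 6 other libraries. Levels in CPM are counts per 1e+06 counts of a library, scaled with TMM factors from edgeR. The libraries held 30415643 to 38743628 counts. The first Plekhg5+/+ SOD1G93A library stood apart. It had the highest value of its genotype for 10 of the 10 genes, at 1.73 (Axl) to 5.14 (Cst7) times the mean of the other two mice, while its human SOD1 level of 4421 CPM was the lowest of the transgenic libraries. The results it moved most are also given without it. Y-linked transcripts were present in 3 Plekhg5+/+, 2 Plekhg5-/-, 2 Plekhg5+/+ SOD1G93A and 1 Plekhg5-/- SOD1G93A library, so sex was not balanced between the genotypes. With Y-linked transcripts as a covariate, the number of the 10 genes called was the same as without it in each comparison. It was 9 for the transgene in Plekhg5+/+ mice and 0 in the other comparisons. The effect of sex itself on the levels of the 10 genes was not tested.

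The sequence before the first base of the genes was searched for 4 motifs on both strands. RefSeq windows upstream of the gene on GRCm38.p6 were at hand for 7 of the 10 genes: Trem2, Itgax, Clec7a, Cst7, Spp1, Gpnmb and Cd68. The core of the binding motif of PU.1, the factor that specifies macrophages and microglia, was read as GAGGAA. It was present in 4 of the 7 windows (Trem2, Clec7a, Spp1 and Cd68) and in 23.3% of the 32817 windows of all genes. The AP-1 motif, read as TGANTCA, was present in 3 of the 7 windows (Trem2, Itgax and Cd68) and in 6.75% of all windows. The E-box CACGTG and the M-box TCATGTG, which factors of the MiT/TFE family bind at lysosomal genes, were in 0 of the 7 windows and in 6.02% and 3.25% of all windows. The motifs did not overlap each other in these windows. The 3 windows with an AP-1 motif and that of Clec7a are printed 5′ to 3′ on the strand of the gene, ending at the base before its start, with matches to either motif in capitals.
Trem2, chr17:48346151-48346400, plus strand: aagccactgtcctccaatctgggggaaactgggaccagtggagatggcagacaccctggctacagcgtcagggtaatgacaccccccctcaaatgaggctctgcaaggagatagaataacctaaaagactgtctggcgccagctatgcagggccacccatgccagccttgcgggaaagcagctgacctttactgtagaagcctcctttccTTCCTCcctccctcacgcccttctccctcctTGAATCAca
Itgax, chr7:128129300-128129525, plus strand: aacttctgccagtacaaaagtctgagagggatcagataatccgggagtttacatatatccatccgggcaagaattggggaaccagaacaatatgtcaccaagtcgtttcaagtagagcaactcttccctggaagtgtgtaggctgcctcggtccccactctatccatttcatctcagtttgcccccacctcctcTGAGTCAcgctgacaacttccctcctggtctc
Cd68, chr11:69666171-69666420, minus strand: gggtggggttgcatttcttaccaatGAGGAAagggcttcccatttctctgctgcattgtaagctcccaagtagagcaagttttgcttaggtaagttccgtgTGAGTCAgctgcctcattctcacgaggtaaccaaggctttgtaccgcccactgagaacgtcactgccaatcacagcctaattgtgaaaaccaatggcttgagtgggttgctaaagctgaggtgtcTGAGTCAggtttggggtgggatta
Clec7a, chr6:129472786-129473035, minus strand: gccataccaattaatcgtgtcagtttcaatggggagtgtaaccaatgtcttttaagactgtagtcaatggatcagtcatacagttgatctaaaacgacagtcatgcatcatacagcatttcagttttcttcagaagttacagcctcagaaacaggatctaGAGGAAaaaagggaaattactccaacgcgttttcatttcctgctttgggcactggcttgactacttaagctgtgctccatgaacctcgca
In Trem2 the capitals are a PU.1 core, read on the other strand, 40 to 35 bases before the start and an AP-1 motif 9 to 3 bases before it. In Itgax the AP-1 motif lay 32 to 26 bases before the start. Cd68 had AP-1 motifs at 149 to 143 and at 24 to 18 bases and a PU.1 core at 225 to 220 bases, and Clec7a a PU.1 core at 90 to 85 bases. A match is only a run of letters and does not show that a factor binds there.

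On the RPKM scale, CPM divided by exon length in kilobases, which allows levels of different genes to be compared, Spp1 was the most abundant of the 10 genes in Plekhg5+/+ mice with 104.2 ± 4.93 (SD, n = 3). It was followed by Tyrobp with 31.3 ± 5.26, Axl with 14.6 ± 1.22 and Trem2 with 9.72 ± 1.28 RPKM. These 4 did not overlap with their neighbours in the order. Cd68 (5.40 ± 0.363 RPKM) and Cd52 (4.98 ± 0.643 RPKM) overlapped with each other, as did Clec7a (0.874 ± 0.199) and Gpnmb (0.742 ± 0.113). The lowest levels were those of Cst7 (0.375 ± 0.153 RPKM) and Itgax (0.203 ± 0.0617 RPKM), which also overlapped. In Plekhg5+/+ SOD1G93A mice the order was Spp1 (149.8 RPKM), Tyrobp (100.1), Trem2 (33.7), Cd68 (27.7), Cd52 (26.4), Axl (24.6), Cst7 (15.1), Clec7a (13.4), Gpnmb (8.88) and Itgax (4.05). There only Tyrobp and Trem2 did not overlap among neighbours. Without the first library, Axl (19.8 RPKM) stood in the fourth place there, after Trem2 (24.3) and before Cd68 (19.5) and Cd52 (18.7), and the order of the other genes was the same. Axl was in the third place in Plekhg5+/+ mice, and also in Plekhg5-/- SOD1G93A mice with 18.3 ± 0.493 RPKM.

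Across the comparison of Plekhg5+/+ SOD1G93A with Plekhg5+/+ mice, 9 of the 10 genes rose (edgeR's quasi-likelihood test, adjusted p under 0.05), and Spp1 did not pass. Among all 20155 genes tested, 2.09% passed in this direction. The groups did not overlap for the same 9 genes, against 11.6% of all genes with Plekhg5+/+ SOD1G93A higher. In RNA of a whole tissue, more cells of a type and more RNA per cell cannot be told apart.

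Trem2 (chromosome 17, 48346401 to 48352276, GRCm38.p6) had 12.8, 10.1 and 10.5 CPM in the 3 Plekhg5+/+ libraries and 60.2, 27.6 and 28.1 CPM in the 3 Plekhg5+/+ SOD1G93A libraries. Every transgenic library was above every control, and the first transgenic library stood far above the others. The log2 fold change was 1.79 (SE 0.262, edgeR adjusted p = 0.0125). Tyrobp (chromosome 7, 30413782 to 30417582), the adaptor without which Trem2 cannot signal, had 20.7, 14.7 and 18.6 CPM in Plekhg5+/+ and 89.2, 41.7 and 41.9 CPM in Plekhg5+/+ SOD1G93A mice. The resulting log2 fold change of 1.68 (SE 0.269, edgeR adjusted p = 0.0153) was close to that of its partner.

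Clec7a and Itgax, surface receptors at low levels in control tissue, rose more. Clec7a, also known as dectin-1, a receptor for fungal glucans that signals through Syk (chromosome 6, 129461591 to 129472785), had 2.00, 1.54 and 2.45 CPM in Plekhg5+/+ and 63.2, 17.0 and 11.7 CPM in Plekhg5+/+ SOD1G93A mice. This gave a log2 fold change of 3.93 (SE 0.620, edgeR adjusted p = 0.0165). The gene Gm45969 overlaps it on the opposite strand, and reads were counted by strand. Itgax, the integrin chain CD11c (chromosome 7, 128129526 to 128150657), had 1.16, 0.944 and 0.613 CPM in Plekhg5+/+ and 39.0, 9.47 and 5.76 CPM in Plekhg5+/+ SOD1G93A mice. This gave a log2 fold change of 4.31 (SE 0.699, edgeR adjusted p = 0.0171), and its counts were not whole numbers in 9 of the 12 libraries, where reads that matched several places were counted as fractions. For both genes the spread of the transgenic mice was about as large as their mean, with SDs of 28.3 CPM around 30.6 (Clec7a) and 18.2 CPM around 18.1 (Itgax), but 3.72 around 14.3 and 2.63 around 7.62 CPM without the first of them.

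Axl (chromosome 7, 25756500 to 25788924), a receptor kinase for the bridging ligands that tag dying cells, was far more abundant in controls and rose less. It had 69.7, 79.5 and 81.8 CPM in Plekhg5+/+ and 180.2, 105.1 and 103.6 CPM in Plekhg5+/+ SOD1G93A mice, without overlap. The log2 fold change was 0.75 (SE 0.168, edgeR adjusted p = 0.0402). This call was near the threshold and kept its side of it in 11 of 24 alternatives, with adjusted p from 0.00053 to 0.155. It was lost without any 1 of the Plekhg5+/+, Plekhg5-/- or Plekhg5-/- SOD1G93A libraries, without the low count filter, with the replicate block, with limma voom and with only the 2 genotypes compared in the fit.

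Of the secreted products, Cst7 had the largest fold change of the 10 genes and Spp1 the smallest. Cst7, a cystatin that inhibits lysosomal cysteine proteases (chromosome 2, 150570415 to 150578944), had 0.522, 0.220 and 0.367 CPM in Plekhg5+/+ and 32.1, 6.80 and 5.70 CPM in Plekhg5+/+ SOD1G93A mice. This gave a log2 fold change of 5.30 (SE 0.769, edgeR adjusted p = 0.0125), with 7 to 18 counts per control library. Spp1, the matrix protein osteopontin (chromosome 5, 104435111 to 104441053), had 182.2, 168.5 and 167.6 CPM in Plekhg5+/+ and 359.9, 211.3 and 173.7 CPM in Plekhg5+/+ SOD1G93A mice. The third transgenic library lay within the range of the controls, and the log2 fold change of 0.52 did not pass (SE 0.196, edgeR adjusted p = 0.183).

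The lysosomal and membrane glycoproteins rose between these extremes. Gpnmb, induced in macrophages under lysosomal stress (chromosome 6, 49036518 to 49058182), had 3.25, 2.39 and 2.82 CPM in Plekhg5+/+ and 58.3, 27.9 and 15.0 CPM in Plekhg5+/+ SOD1G93A mice, a log2 fold change of 3.58 (SE 0.464, edgeR adjusted p = 0.0125). Cd68, the macrophage member of the LAMP family of lysosomal membrane proteins (chromosome 11, 69664213 to 69666170), had 6.67, 7.21 and 6.31 CPM in Plekhg5+/+ and 54.9, 25.4 and 23.1 CPM in Plekhg5+/+ SOD1G93A mice, a log2 fold change of 2.36 (SE 0.300, edgeR adjusted p = 0.0125). In both genes the first transgenic library was the highest and the third the lowest. Cd52, a short surface glycoprotein (chromosome 4, 134093538 to 134095073), had 2.52, 2.17 and 2.82 CPM in Plekhg5+/+ and 20.9, 8.42 and 10.4 CPM in Plekhg5+/+ SOD1G93A mice, a log2 fold change of 2.402 (SE 0.309, edgeR adjusted p = 0.0124).

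**Figure D1:**
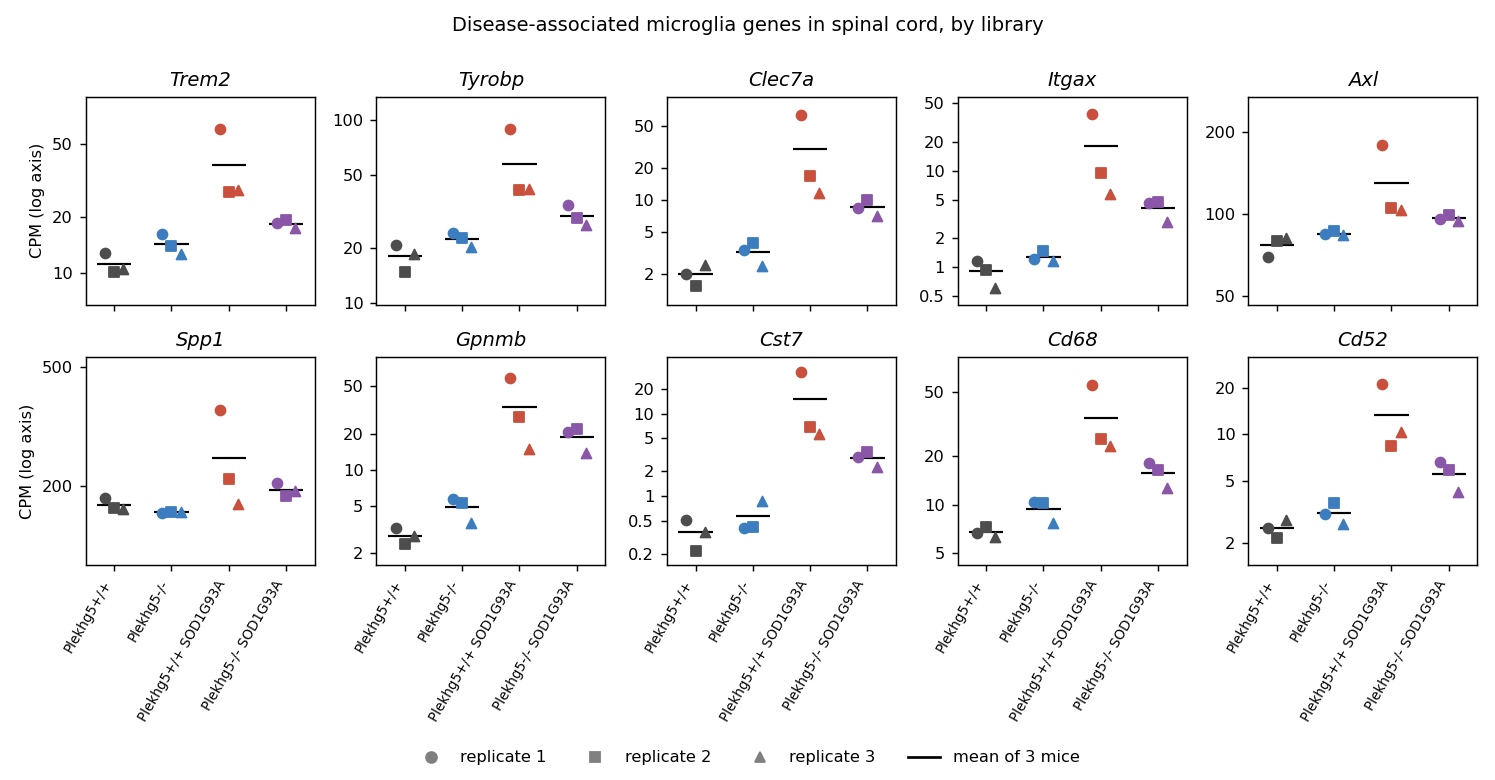
CPM of the 10 genes (log axis, own scale for each gene) in each of the 12 libraries, by genotype, with 1 symbol per replicate number and a bar at the mean of 3 mice. The first Plekhg5+/+ SOD1G93A library is the highest of its genotype in all 10 panels, and the Plekhg5-/- SOD1G93A libraries lie above the Plekhg5+/+ libraries in all 10.

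The calls of this comparison depended on the control libraries and on the spread taken from the other genotypes. With the first Plekhg5+/+ library left out, 0 of the 10 genes passed (among 0.0195% of all genes), without the second also 0 (among 0.00976%), and with only the 2 genotypes compared in the fit 0 passed (among 0.0154% of all genes), while their log2 fold changes stayed positive. limma voom called 6 of the 10 (Trem2, Tyrobp, Clec7a, Gpnmb, Cd68 and Cd52, among 1.46% of all genes). Without the first Plekhg5+/+ SOD1G93A library the same 9 genes remained called (among 1.09% of all genes), with smaller log2 fold changes such as 1.32 for Trem2, 4.05 for Cst7, 3.06 for Itgax, 2.84 for Clec7a and 0.44 for Axl.

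In Plekhg5-/- SOD1G93A mice all 10 genes had a lower mean than in Plekhg5+/+ SOD1G93A mice, but with edgeR 0 of the 10 passed (adjusted p from 0.402 to 0.601). Their log2 fold changes ran from -2.37 (Cst7) to -0.36 (Spp1), with a median of -1.10, against -0.0097 over all genes. Of the 20155 genes tested, 0.0347% passed in either direction, that is 7 genes, 3 higher and 4 lower, with Plekhg5 itself among the lower ones. At an unadjusted p under 0.05, 8 of the 10 genes and 5.05% of all genes were lower. The groups did not overlap for 8 of the 10 genes, with Spp1 and Gpnmb as the exceptions, against 10% of all genes with Plekhg5-/- SOD1G93A lower. This comparison and the one before share the 3 Plekhg5+/+ SOD1G93A libraries, so their opposite signs are not independent.

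For the receptor and its adaptor, Trem2 had 18.7, 19.3 and 17.5 CPM in the 3 Plekhg5-/- SOD1G93A libraries, all under the 27.6 CPM of the lowest Plekhg5+/+ SOD1G93A library. The log2 fold change was -1.06 (SE 0.254, edgeR adjusted p = 0.402). Tyrobp had 34.2, 29.3 and 26.7 CPM, again all lower than 41.7 CPM, with a log2 fold change of -0.94 (SE 0.261, edgeR adjusted p = 0.412). The SD of Trem2 was 0.933 CPM in the mice without Plekhg5 and 18.7 CPM in Plekhg5+/+ SOD1G93A mice, or 0.385 CPM in the latter without the first library.

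Clec7a had 8.51, 10.1 and 7.10 CPM in the Plekhg5-/- SOD1G93A libraries, Itgax 4.63, 4.74 and 2.95 CPM, and Cst7 2.96, 3.46 and 2.23 CPM. These 3 genes had the largest differences from Plekhg5+/+ SOD1G93A mice, with log2 fold changes of -1.84 (SE 0.537), -2.14 (SE 0.592) and -2.37 (SE 0.600). Cd68 had 18.1, 16.4 and 12.7 CPM and Cd52 6.63, 5.92 and 4.25 CPM, with log2 fold changes of -1.13 (SE 0.282) and -1.25 (SE 0.288). For these 5 genes every Plekhg5-/- SOD1G93A library was under every Plekhg5+/+ SOD1G93A library.

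Gpnmb and Spp1 behaved differently. Gpnmb had 20.6, 21.9 and 13.8 CPM in Plekhg5-/- SOD1G93A mice, and 2 of these values were above the 15.0 CPM of the third Plekhg5+/+ SOD1G93A library. Spp1 had 203.9, 184.8 and 192.7 CPM, within the 173.7 to 359.9 CPM of Plekhg5+/+ SOD1G93A mice. Axl had 95.6, 99.5 and 94.6 CPM, close to the 103.6 CPM of the lowest Plekhg5+/+ SOD1G93A library, and a log2 fold change of -0.42 (SE 0.167, edgeR adjusted p = 0.526).

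The choice of tool and a single library set how these differences read. DESeq2 with a prior on fold changes, the test of the study's methods, called 6 of the 10 genes lower (Trem2, Cst7, Itgax, Clec7a, Cd68 and Cd52) among 0.546% of all genes in either direction, DESeq2 without the prior called 3 (Trem2, Cd68 and Cd52) among 0.380%, and limma voom called 0 among 0.0347%. Without the first Plekhg5+/+ SOD1G93A library 0 passed with edgeR (among 0.0245% of all genes), and the log2 fold changes were -0.59 for Trem2, -0.48 for Tyrobp, -1.12 for Cst7, -0.89 for Itgax, -0.74 for Clec7a, -0.63 for Cd68, -0.75 for Cd52, -0.11 for Axl, -0.19 for Gpnmb and 0.0099 for Spp1. The other two Plekhg5+/+ SOD1G93A libraries were above all 3 Plekhg5-/- SOD1G93A libraries for 8 of the 10 genes, against 15.4% of all genes, at a ratio of means from 1.08 (Axl) to 2.17 (Cst7).

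Without Plekhg5, the transgene still went with higher levels. All 10 genes were higher in each Plekhg5-/- SOD1G93A library than in each Plekhg5-/- library, against 7.25% of all genes, although 0 of the 10 passed with edgeR (adjusted p from 0.455 to 0.950). Of all genes 0.00496% passed, that is 1 gene, the human SOD1 of the transgene itself. At an unadjusted p under 0.05, 6 of the 10 genes and 3.27% of all genes were higher. DESeq2 without the prior called Gpnmb (among 0.222% of all genes), and 0 were called by DESeq2 with the prior (0.185%) and by limma voom (0.0347%). Gpnmb had 5.71, 5.27 and 3.57 CPM in Plekhg5-/- mice and thus 3.87 times as much in Plekhg5-/- SOD1G93A mice, a log2 fold change of 1.94 (SE 0.434, edgeR adjusted p = 0.455). Cst7 had 0.41, 0.42 and 0.88 CPM in Plekhg5-/- mice, and its log2 fold change was 2.33 (SE 0.753, edgeR adjusted p = 0.752). Itgax (1.23, 1.48 and 1.17 CPM) and Clec7a (3.39, 3.95 and 2.37 CPM) had log2 fold changes of 1.66 (SE 0.680) and 1.40 (SE 0.586). The log2 fold changes were 0.84 for Cd52, 0.74 for Cd68, 0.43 for Tyrobp, 0.37 for Trem2, 0.25 for Spp1 and 0.19 for Axl.

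With only these 2 genotypes in the fit, Cst7, Itgax and Gpnmb passed (among 0.102% of all genes), and without the first Plekhg5+/+ SOD1G93A library, whose spread enters the shared estimate, Cst7 and Gpnmb passed (among 0.0440% of all genes) at log2 fold changes of 2.33 and 1.94, the values given above for all libraries.

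Plekhg5-/- mice without the transgene had slightly higher means than Plekhg5+/+ mice for 9 of the 10 genes, with Spp1 as the exception. With edgeR 0 of the 10 passed (adjusted p from 0.976 to 0.997), and 0 had an unadjusted p under 0.05 (5.32% of all genes). Of all genes 0.0298% passed, Plekhg5 itself among them. DESeq2 without the prior (0.149% of all genes), with it (0.126%) and limma voom (0.0298%) also called 0. The log2 fold changes ran from -0.08 (Spp1) to 0.78 (Gpnmb), with a median of 0.42, against 0.0054 over all genes. The groups did not overlap for Itgax, Gpnmb, Axl and Cd68, all higher in Plekhg5-/- mice, against 4.72% of all genes. Cd68 had 10.4, 10.2 and 7.73 CPM in Plekhg5-/- mice, at 1.40 times the mean of Plekhg5+/+ mice. Trem2 had 16.2, 14.0 and 12.6 CPM, and the lowest of these was under the highest Plekhg5+/+ value. Spp1 was the reverse, with 162.9, 163.0 and 163.1 CPM, all under the lowest Plekhg5+/+ value, as for 3.99% of all genes.

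The effect of the transgene with and without Plekhg5 was compared in the interaction term of the same model. All 10 genes had a negative term, so the log2 fold change of the transgene was smaller without Plekhg5, from -2.97 (Cst7, SE 1.14) to -0.27 (Spp1, SE 0.276). With edgeR 0 of the 10 passed (adjusted p from 0.375 to 0.738), as did 0% of all genes. At an unadjusted p under 0.05, 9 of the 10 genes were below 0, against 5.18% of all genes. For Trem2 the term was -1.42 (SE 0.366), for Cd68 -1.62 (SE 0.414) and for Cd52 -1.56 (SE 0.431), with an edgeR adjusted p of 0.375 each. These 3 genes passed with DESeq2 without the prior (among 0.501% of all genes), 5 passed with the prior (Cst7 and Itgax in addition, among 0.611%), and limma voom called 0. Without the first Plekhg5+/+ SOD1G93A library the terms were -0.95 for Trem2, -1.11 for Cd68, -1.07 for Cd52 and 0.094 for Spp1, and 0 of the 10 passed.

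**Figure D2:**
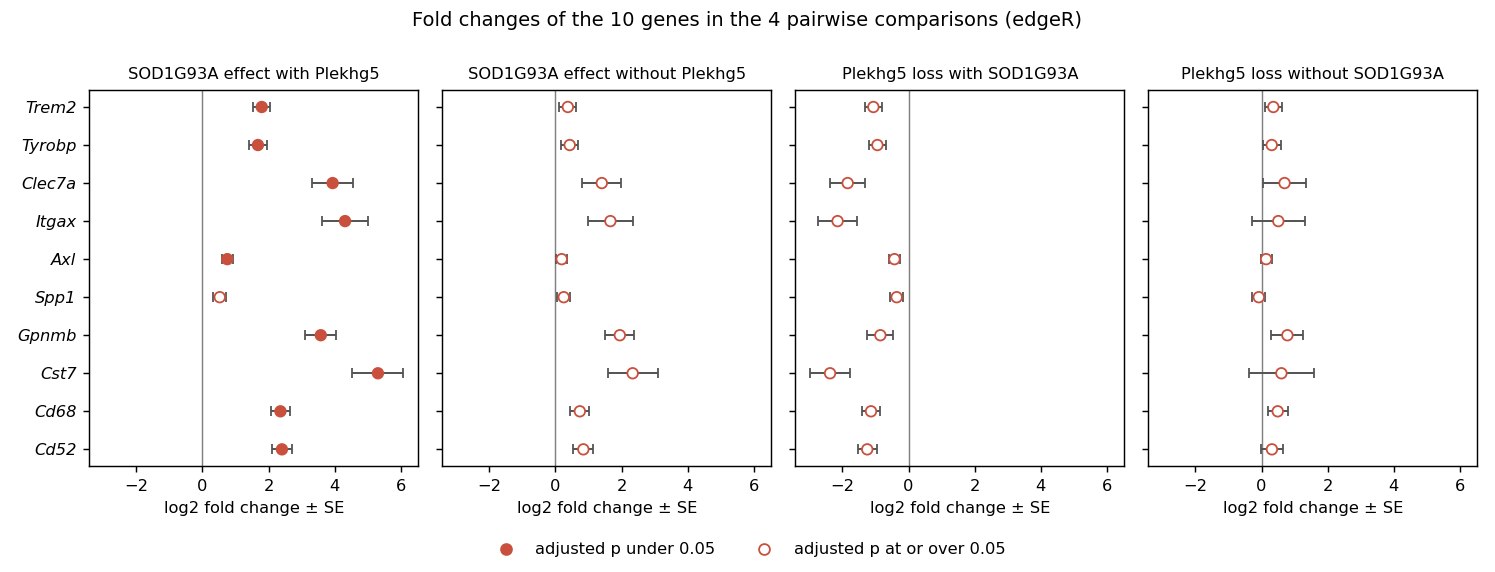
Log2 fold changes of the 10 genes (points, filled where the edgeR adjusted p is under 0.05) with SE bars in the 4 pairwise comparisons, 3 mice against 3 each. Filled points are found only for the transgene in Plekhg5+/+ mice, for 9 genes, and the points for loss of Plekhg5 in SOD1G93A mice are all left of 0.

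Against Plekhg5+/+ mice, the Plekhg5-/- SOD1G93A mice had intermediate means for 10 of the 10 genes. The ratio to the mean of Plekhg5+/+ mice was 40.2 with and 7.79 without Plekhg5 in SOD1G93A mice for Cst7, and in the same order it was 19.97 and 4.53 for Itgax, and 15.3 and 4.29 for Clec7a. For Gpnmb the ratios of 12.0 and 6.65 lay closer together. They were 5.29 and 2.24 for Cd52, 5.13 and 2.34 for Cd68, 3.47 and 1.66 for Trem2, 3.20 and 1.67 for Tyrobp, 1.68 and 1.25 for Axl, and 1.44 and 1.12 for Spp1. Every Plekhg5-/- SOD1G93A library was above every Plekhg5+/+ library for all 10 genes, which held for 9.82% of all genes. When the first Plekhg5+/+ SOD1G93A library was left out, the ratios in the mice with Plekhg5 fell to 16.9 for Cst7, 8.41 for Itgax, 7.17 for Clec7a and 7.605 for Gpnmb, and to 3.76 for Cd52, 3.61 for Cd68, 2.50 for Trem2, 2.32 for Tyrobp, 1.355 for Axl and 1.11 for Spp1. The means of Plekhg5-/- SOD1G93A mice then lay between the others for 9 of the 10 genes, with Spp1 as the exception.

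Markers that all microglia share moved in the same libraries. The core microglia list holds 12 genes, among them Csf1r, the receptor on which microglia depend, and Aif1, which encodes Iba1. All 12 rose in Plekhg5+/+ SOD1G93A against Plekhg5+/+ mice (edgeR, 2.09% of all genes), with log2 fold changes from 0.89 to 1.64. Their summed level was 363.1 to 423.2 CPM in Plekhg5+/+, 411.2 to 540.2 in Plekhg5-/-, 718.2 to 1402 in Plekhg5+/+ SOD1G93A and 525.5 to 597.8 CPM in Plekhg5-/- SOD1G93A mice. None of the 12 was at 0 in any genotype. Each of the 10 genes was therefore also expressed relative to these markers, as its log2 CPM minus the mean log2 CPM of the list in the same library.

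Relative to the core markers, 8 genes remained higher in all 3 Plekhg5+/+ SOD1G93A than in all 3 Plekhg5+/+ libraries, against 0.342% of all genes, and Axl and Spp1 were lower, as were 91.8% of all genes. The core mean itself rose here, so a gene without change is lower on this scale, and these shares largely reflect that. The difference was 3.43 log2 units for Cst7, 2.50 for Itgax, 2.24 for Clec7a and 2.06 for Gpnmb. It was 0.98 for Cd52 and 0.95 for Cd68, but only 0.41 for Trem2 and 0.30 for Tyrobp, and it was -0.58 for Axl and -0.83 for Spp1. For each of the 10 genes the two-sided exact permutation test gave p = 0.1, the smallest that 3 mice against 3 can give. Without the first Plekhg5+/+ SOD1G93A library the differences were 2.95 for Cst7, 0.34 for Trem2 and 0.24 for Tyrobp, and the signs of all 10 were the same. The size of the smaller differences depended on the markers. Relative to the 10 homeostatic microglia genes in place of the core list, the difference was 0.85 for Trem2, 0.75 for Tyrobp, 1.39 for Cd68 and 1.425 for Cd52, and -0.14 for Axl and -0.39 for Spp1, with the same signs for all 10 and 3.87 for Cst7, while Axl then overlapped between the groups.

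On this relative scale, loss of Plekhg5 in SOD1G93A mice went with smaller differences. Trem2 (-0.22), Cst7 (-1.16) and Cd52 (-0.41) were lower in all 3 Plekhg5-/- SOD1G93A libraries and Axl (0.36) and Spp1 (0.45) higher, each with an exact permutation p = 0.1. On this scale 0.124% of all genes were lower and 74.6% higher without overlap. The other 5 overlapped, and Gpnmb differed by 0.08 (exact permutation p = 0.9). Leaving out the first Plekhg5+/+ SOD1G93A library gave a difference of -0.68 for Cst7, -0.15 for Trem2, -0.32 for Cd52, 0.32 for Axl, 0.45 for Spp1 and 0.28 for Gpnmb. Between Plekhg5-/- SOD1G93A and Plekhg5-/- mice 7 of the 10 genes were higher without overlap, against 0.675% of all genes, led by Cst7 (1.95), Gpnmb (1.61) and Itgax (1.27), whereas Trem2 differed by 0.05 and overlapped (exact permutation p = 0.6). These tests cannot reach 0.05. The mean of the core markers also differed between these genotypes, so the shares over all genes largely reflect the scale.

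**Figure D3:**
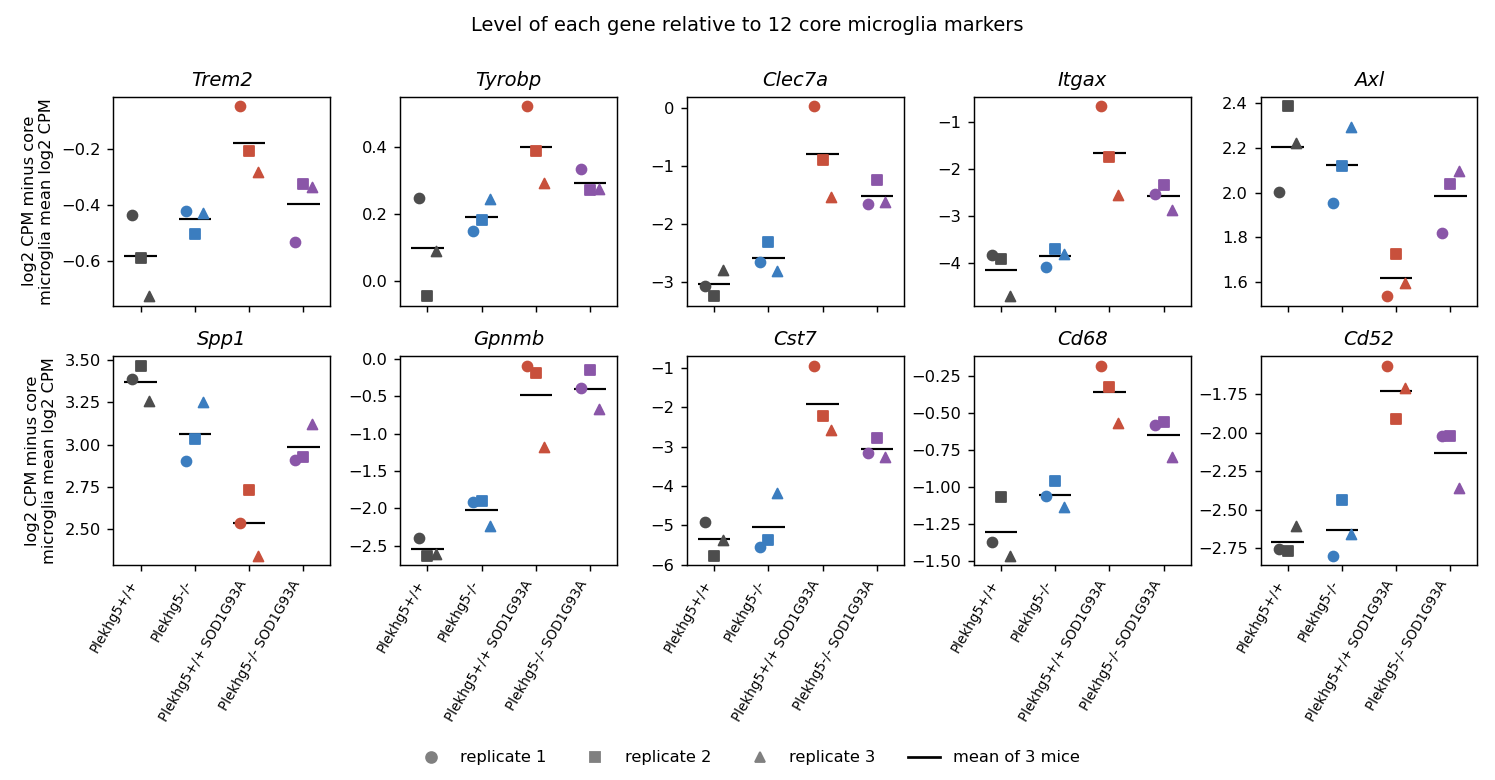
Level of each of the 10 genes relative to 12 core microglia markers (log2 CPM of the gene minus the mean log2 CPM of the markers, linear axis with its own scale for each gene), 1 point per library and a bar at the mean of 3 mice. Cst7, Itgax, Clec7a and Gpnmb are more than 2 log2 units above Plekhg5+/+ mice in Plekhg5+/+ SOD1G93A mice, Trem2 and Tyrobp less than 0.5, and Axl and Spp1 are lower.

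The genes that act around Trem2 were read from lists of its signalling chain, its ligands and relatives. Some genes, such as Apoe, stand in several lists. The calls of these lists, like those of the 10 genes, needed the control libraries. With only the 2 genotypes compared in the fit 0 genes passed of the core, proximal signalling, other programme and homeostatic lists, and so without the second Plekhg5+/+ library, while without the first 1 gene of the 28 other programme genes passed and 0 of the rest. If the first Plekhg5+/+ SOD1G93A library was left out, 12 of the 12 core, 5 of the 17 signalling, 13 of the 28 programme and 4 of the 10 homeostatic genes rose. In that fit 1.09% of all genes passed in either direction. With all libraries, the 17 tested genes of proximal signalling had a median log2 fold change of 0.81 in Plekhg5+/+ SOD1G93A mice. It was 1.36 for the core microglia markers and -0.00099 over all genes. Of the 17 genes, 8 rose and 0 fell, while 2.09% of all genes rose. They included Blnk (1.35, edgeR adjusted p = 0.0177) and Lat2 (1.49, adjusted p = 0.0197), adaptors of receptors with a tyrosine motif, the phosphatase Ptpn6 (1.29, adjusted p = 0.0198) and the exchange factor Vav1 (1.18, adjusted p = 0.0224). Syk itself went from 5.73 ± 1.59 to 9.03 ± 3.13 CPM (SD, n = 3 each) and did not pass. Of the lipoprotein ligands, Apoe rose by 0.73 (edgeR adjusted p = 0.0466) and Clu by 0.61 (adjusted p = 0.0299). The proteases that shed Trem2 from the surface, Adam10 and Adam17, had log2 fold changes of 0.01 and 0.13 and did not pass. Of the other Trem genes, Treml2 rose from 0.545 ± 0.101 to 2.406 ± 1.71 CPM (log2 fold change 2.13, edgeR adjusted p = 0.0348), Treml4 did not pass, and Trem1, Trem3 and Treml1 were too low to be tested.

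The partners of the other genes moved less evenly. Of the beta2 integrin chains, Itgb2, the partner of Itgax on the cell surface, rose by 1.67 (edgeR adjusted p = 0.0171) and Itgam by 1.06 (adjusted p = 0.0146), while Itgal and Itgad did not pass. The ligands of Axl, Gas6 and Pros1, and its relatives Mertk and Tyro3 did not pass, with log2 fold changes of -0.03, 0.59, -0.15 and -0.19. Of the 7 receptors of Spp1, Cd44 (1.25, edgeR adjusted p = 0.0198) and Itgb5 (0.61, adjusted p = 0.0409) rose. The cysteine proteases Ctsh (1.05), Ctsc (0.81) and Ctsl (0.75) rose, while the cystatins Cst3, Cst6 and Cstb did not pass. The lysosomal transcription factors Mitf, Tfeb and Tfe3 had log2 fold changes from 0.04 to 0.19 and did not pass, nor did Lamp1, Lamp2 and Lamp5, the relatives of Cd68.

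Among 28 other genes of the disease-associated programme, all had a positive log2 fold change in this comparison and 18 rose (2.09% of all genes), with a median of 0.80. The largest were Atp6v0d2, a subunit of the lysosomal proton pump (4.26, edgeR adjusted p = 0.0125), the chemokines Ccl3 (3.86, adjusted p = 0.0075) and Ccl4 (3.30, adjusted p = 0.0103), and Lgals3 (2.59, adjusted p = 0.0125), a lectin of damaged lysosomes. In Plekhg5+/+ mice the means of Atp6v0d2, Ccl3 and Ccl4 were only 0.0309, 0.330 and 0.234 CPM, so their fold changes rest on few control counts. Homeostatic microglia genes, which are known to be low in the disease-associated state, did not fall in this RNA of a whole tissue. Of the 10, 7 rose (2.09% of all genes), among them Olfml3 (1.16) and Cx3cr1 (1.13), while Tmem119 (0.25) and Sall1 (0.23) did not pass. The median log2 fold change of the 10 homeostatic genes was 0.79, under the 1.36 of the core microglia markers. Single homeostatic genes ran from 0.23 to 2.26, and the highest was above all core markers (0.89 to 1.64). The level per cell of the homeostatic genes was not tested.

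For loss of Plekhg5 among SOD1G93A mice, 0 genes of these lists passed with edgeR. Of the 28 other programme genes 26 had a negative log2 fold change (median -0.50), led by Ccl4 (-2.00, edgeR adjusted p = 0.219), and so had all 12 core (median -0.82) and all 10 homeostatic markers (median -0.42). Atp6v0d2 had a positive value, with 0.650 ± 0.256 CPM in Plekhg5+/+ SOD1G93A and 0.909 ± 0.269 CPM in Plekhg5-/- SOD1G93A mice against 0.0309 ± 0.0306 CPM in Plekhg5+/+ mice (SD, n = 3 each). With the first Plekhg5+/+ SOD1G93A library left out, 24 of the 28 programme genes, all 12 core and all 10 homeostatic markers were negative, with medians of -0.23, -0.44 and -0.29.

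**Figure D4:**
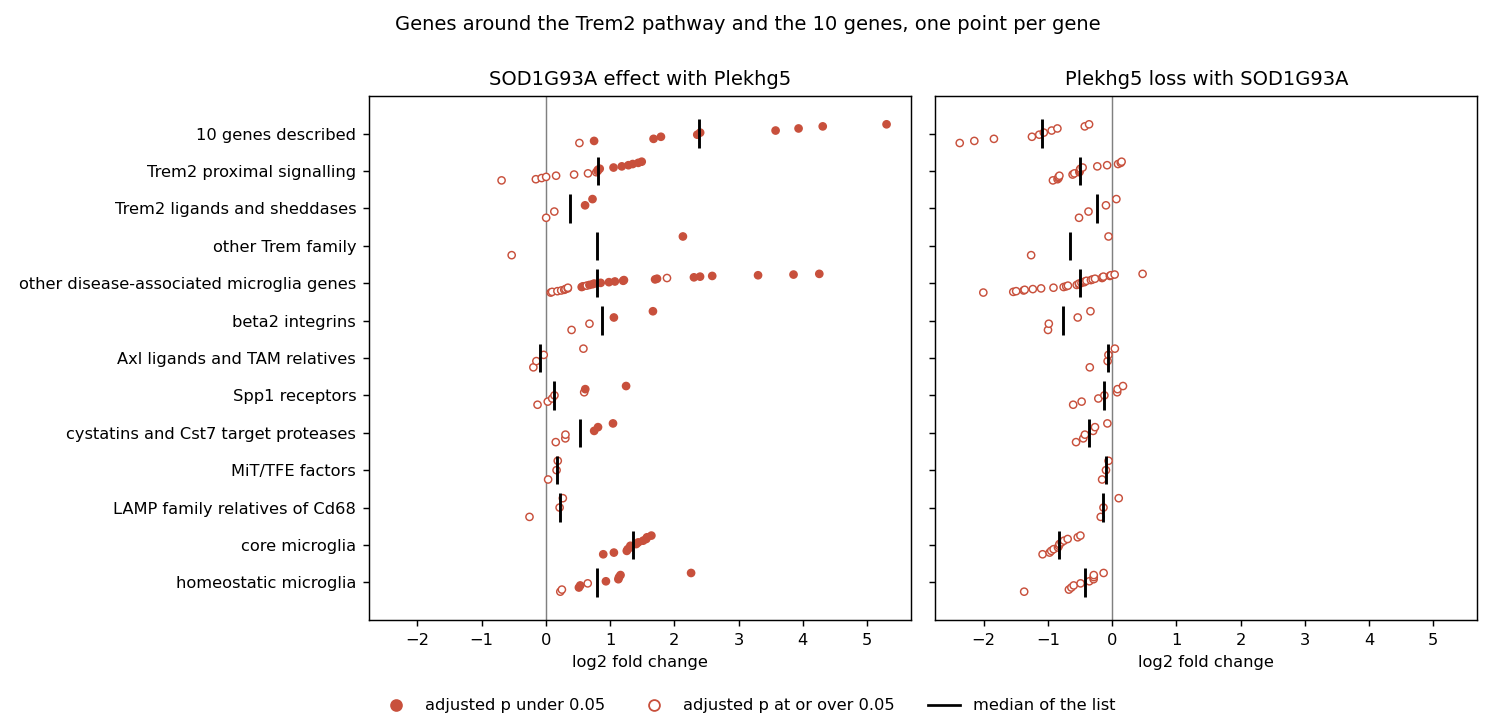
Log2 fold changes (edgeR) of the tested genes of 13 lists, 1 point per gene, for the transgene in Plekhg5+/+ mice and for loss of Plekhg5 in SOD1G93A mice, filled where the adjusted p is under 0.05 and with a bar at the median of each list. All 12 core microglia markers are filled on the left, and no point is filled on the right.

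Markers of other cells that could carry some of the 10 genes were examined beside them. Of 7 markers of border macrophages, 1 rose in Plekhg5+/+ SOD1G93A against Plekhg5+/+ mice, Ms4a7 (2.58, edgeR adjusted p = 0.0125), and their summed level of 12.5 to 21.5 CPM in Plekhg5+/+ overlapped with 10.6 to 21.2 CPM in Plekhg5+/+ SOD1G93A mice. Of 8 monocyte and neutrophil markers 0 passed, although 6 had a positive log2 fold change and the median was 1.21. Between Plekhg5-/- SOD1G93A and Plekhg5-/- mice all 8 were positive (median 1.12) and 0 passed. Their summed level was 20.6 to 70.0 CPM in Plekhg5+/+ and 45.1 to 136.8 CPM in Plekhg5+/+ SOD1G93A mice. It was 33.4 to 76.9 CPM in Plekhg5-/- and 26.8 to 239.3 CPM in Plekhg5-/- SOD1G93A mice. Of 9 markers of T, NK and dendritic cells 4 could be tested and 0 passed. These were Cd8a (log2 fold change 1.502, edgeR adjusted p = 0.307), Cd4 (1.22, adjusted p = 0.42), Flt3 (-0.42, adjusted p = 0.0591) and Zbtb46 (-0.21, adjusted p = 0.47). Between Plekhg5-/- SOD1G93A and Plekhg5-/- mice, Cd8a differed by 3.36 (adjusted p = 0.455) and Cd4 by 2.08 (adjusted p = 0.721), at means of 0.671 and 0.662 CPM with the transgene and 0.0614 and 0.15 CPM without it. The list summed to 36.5 to 46.8 CPM in Plekhg5+/+, 32.7 to 38.6 in Plekhg5-/-, 30.4 to 38.2 in Plekhg5+/+ SOD1G93A and 37.0 to 41.9 CPM in Plekhg5-/- SOD1G93A mice. Xcr1 was at 0 in all libraries but those of Plekhg5+/+ SOD1G93A mice, and Cd3e, Cd3d, Nkg7 and Clec9a were too low to be tested. Of 7 motoneuron markers 0 passed, with 1414 to 1533 CPM in Plekhg5+/+ and 1004 to 1320 CPM in Plekhg5+/+ SOD1G93A mice, and of 10 astrocyte markers Gfap (1.23), Sox9 (0.81) and Vim (1.31) rose. Schwann cell markers, which come with nerve roots, summed to 61.9 to 239.0 CPM in Plekhg5+/+ and 50.7 to 97.15 CPM in Plekhg5-/- mice. They summed to 48.6 to 134.7 CPM in Plekhg5+/+ SOD1G93A and 229.8 to 350.8 CPM in Plekhg5-/- SOD1G93A mice, and 0 of the 4 passed. The part of these cells and of root tissue in the levels of the 10 genes was not tested.

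Over the 12 libraries, each of the 10 genes followed the others closely, as a description over libraries that share genotypes and total depth. The first Plekhg5+/+ SOD1G93A library was the highest of its genotype for all 10 genes, and correlations without it were not taken. The Pearson correlation of log2 CPM with Trem2 was highest for Tyrobp (0.990) among the 10 genes, and for Ctsz (0.993), Laptm5 (0.992), C1qa (0.988), Mpeg1 (0.987) and Lix1l (0.987) among other genes. Spp1 was the least alike, with 0.764 (Gpnmb) to 0.897 (Axl). The nearest other gene was Cd22 for Cst7 (0.978), Tgm1 for Clec7a (0.992), Mpeg1 for Itgax (0.984), Ccl3 for Gpnmb (0.967), Slc11a1 for Cd68 (0.989), Spi1, which encodes PU.1, for Cd52 (0.988), Lgals3bp for Axl (0.989), Cd53 for Tyrobp (0.990) and Cd274 for Spp1 (0.973). The genes nearest to the mean of the 10 genes were Mpeg1 (0.996), Slc14a1 (0.991), Hvcn1, Cyth4 and Slc11a1 (0.989 each).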

How the data were processed

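Counts per gene were deposited by the authors in 1 table for the 12 libraries, and were handled as estimated counts because they need not be whole. Per the submitters' processing notes and the methods, reads were made with bcl2fastq 2.20.0.422, trimmed with cutadapt 2.4, aligned to GRCm38.p6 with STAR 2.7.2b and counted by strand with featureCounts 1.6.4, with reads that matched several places or genes counted as fractions. In each library 17.3% to 18.2% of the values were not whole, and all were rounded. The libraries held 30415643 to 38743628 counts.

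Counts were fitted with edgeR 4.0.16 (R 4.3.3, TMM, filterByExpr, robust quasi-likelihood test) over all 4 genotypes, and p-values were adjusted by Benjamini-Hochberg over 20155 genes at a threshold of 0.05. DESeq2 1.42.0, with and without a prior, and limma 3.58.1 voom were alternatives. Scripts were tested on simulated data. The DESeq2 fit with a prior stands for the study's test, which is an alternative here. Levels relative to core markers used a prior count of 2 and exact permutation tests.

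The 10 genes and the lists around them were chosen with earlier results of these data known. All 10 genes were named. From each list up to 4 genes with the smallest p in the comparison described were named, and any gene of a list of 5 or fewer. Genes nearest in pattern needed a mean of 1 CPM. Syk, Tmem119, Sall1, Csf1r, Aif1, Cst3, Cst6, Cd3e, Cd3d, Nkg7, Xcr1, Clec9a and, for loss of Plekhg5, Atp6v0d2 were named outside this rule, after their values were seen. Counts over lists under the alternatives, and levels, ratios and relative levels for loss of Plekhg5 without the first Plekhg5+/+ SOD1G93A library, were added after seeing the data. The p-values of the fits set the difference between genotypes against a spread between mice, estimated over all genotypes fitted and with information shared over genes. Replicate numbers were tested as a block, although same-numbered libraries did not all deviate together.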

Additional observations from a re-analysis of the deposited data

How the results depend on the processing

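With SOD1G93A against without it in Plekhg5+/+ mice, 498 genes were called by edgeR, and 1145 at an adjusted p under 0.1, 1159 with DESeq2 without a prior, 1190 with it, 295 with limma voom and 3 with only the 2 genotypes in the fit. That last fit called 0 of the 10 genes described. Leaving out 1 library gave 2 to 771 genes and 0 to 10 of the 10 genes. The 0 came without the first or the second Plekhg5+/+ library and the 10 without the third Plekhg5+/+ SOD1G93A library. For loss of Plekhg5 with SOD1G93A, 7 genes were called, and 11 with only 2 genotypes, 72 and 114 with DESeq2 without and with the prior (3 and 6 of the 10 genes) and 4 to 8 without 1 library. For SOD1G93A without Plekhg5, 1 gene was called, human SOD1. With at least 10 counts in every library 0 were called, since human SOD1 had 5 counts in the third Plekhg5+/+ library and was filtered out. There were 20 with only 2 genotypes (3 of the 10 genes), 45 and 41 with DESeq2 (1 and 0 of the 10 genes), 7 with limma voom and 1 to 9 without 1 library (0 to 2 of the 10 genes). For loss of Plekhg5 without SOD1G93A, 6 genes were called, 34 and 32 with DESeq2 and 5 to 59 without 1 library. The interaction had 0 genes, 1 without the low count filter, 95 and 112 with DESeq2 (3 and 5 of the 10 genes) and 0 to 40 without 1 library. Without 1 library, Spp1 ranged from -0.56 to 0.0099 for loss of Plekhg5 with SOD1G93A and from -0.48 to 0.094 in the interaction, and both turned positive only without the first Plekhg5+/+ SOD1G93A library. Apart from the filtering of human SOD1 and the fewer samples of some fits, the cause of these changes was not tested.

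The replicate block called 631, 8, 1, 8 and 0 genes in these 5 comparisons, in the same order, and 8, 0, 0, 0 and 0 of the 10 genes, since Axl (0.73) was no longer called. Correlations of same-numbered libraries' deviations ran from -0.163 to 0.318, with 5 of 18 over 0.1. Whether same-numbered libraries share more than a number was not tested further. In the comparison of SOD1G93A in Plekhg5+/+ mice, 39 of 239 values of the 10 genes under the alternatives kept only their direction and 1 newly passed, and the rest kept direction and side of the threshold. Depth limits Cst7, with 7 to 18 counts in each Plekhg5+/+ library.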
